A study of Homo sapiens with 4 samples.

Results

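The claudins of colon epithelium were followed in HT-29 cells that expressed a control vector or Myc-TRIM40. HT-29 is an established line of human colon cancer cells with epithelial character, and TRIM40 is a member of the tripartite motif family of ubiquitin ligases. The members were 9 genes taken by symbol, CLDN1, CLDN2, CLDN3, CLDN4, CLDN7, CLDN8, CLDN12, CLDN15 and CLDN23, out of 27685 genes in the deposited tables and out of 24 genes named as claudins there. They were present as 16 of 63714 RefSeq transcripts, which were summed per gene.

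The control cells are labelled WT for genotype, and the other cells are labelled as TRIM40 overexpression. Apart from the making of the lines, both conditions were cultured without any treatment. The study's methods describe a selection of transduced cells with puromycin. According to the study's methods, TRIM40 was carried by the retroviral vector pMSCV, and nothing in the sources used here says that the line is a single clone. Each condition had 2 libraries, 1 from each of 2 independent experiments, and each experiment had its own control, so that Myc-TRIM40 was set against the control of the same experiment. Whether the experiments used separately transduced cells is not given in the sources used here, and the p-values measure only the spread between these libraries. The libraries held between 60954602 and 67424698 reads. TRIM40 itself had 0 reads in both control libraries, and with Myc-TRIM40 it had 272646 reads in experiment 1 and 110665 in experiment 2. The 8 epithelial markers, among them EPCAM, KRT20 and VIL1, were all at 1 FPKM or more in every library. The summed level of 5 fibroblast markers was between 0.312 and 0.979 FPKM, with COL1A2, COL3A1 and DCN at 0. The 3 leukocyte markers summed to between 1.45 and 2.61 FPKM with CD3E at 0. Of these, 1 was at 1 FPKM or more in every library. The 3 endothelial markers summed to between 0.0679 and 0.134 FPKM with CLDN5 at 0.

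Claudins are membrane proteins with 4 transmembrane spans that join neighbouring epithelial cells in tight junctions, and the set of claudins in a cell decides which ions and how much water pass between cells. Some close the path and are called sealing claudins, such as CLDN1, CLDN3, CLDN4 and CLDN8, while CLDN2 and CLDN15 form pores for small cations, and CLDN2 also for water. Inside the cell most of them bind scaffold proteins such as TJP1, known as ZO-1. In inflamed colon a shift from sealing claudins to CLDN2 is a known feature of a leaky epithelium. The comparison addressed whether the RNA of these genes differs between cells with and without TRIM40, in a study of TRIM40 and the intestinal barrier.

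CLDN2 was the member with the widest range, and the reads assigned to its transcripts were not on the same transcript in the control libraries. The gene lies on chromosome X at 106143394 to 106174091 of hg19, the build named in the submitters' processing notes, on the plus strand. It has 3 RefSeq transcripts, here called by the place of their start. NM_001171092 has the upstream start, NM_001171095 starts 18196 bases farther on, and NM_020384 has the downstream start. In the GENCODE annotation of GRCh38, each has 2 exons, and the first exon is untranslated and differs, with 341, 110 and 148 bases in the order of the starts. The second exon is common to all of them and begins at the same base, and it holds all 690 coding bases, so that the protein is the same. Between the upstream and the middle start, only reads that reach into a first exon can tell the transcripts apart. The 250 bases before the upstream and the middle start are shown because the assignment of the CLDN2 reads to these starts differed between libraries. They are RefSeq sequences of GRCh38.p14 on the plus strand, 5′ to 3′, at chrX:106899914-106900163 and chrX:106918110-106918359. The capitals mark the letters TTTAT, the core of the site for the intestinal factor CDX2, and TGATAA, a form of the GATA site.
CLDN2 upstream start, NM_001171092: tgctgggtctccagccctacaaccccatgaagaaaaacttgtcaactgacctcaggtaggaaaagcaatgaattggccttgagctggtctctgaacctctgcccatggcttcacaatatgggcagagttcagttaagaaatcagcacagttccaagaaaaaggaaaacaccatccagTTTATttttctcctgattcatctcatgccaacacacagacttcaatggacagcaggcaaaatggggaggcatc
CLDN2 middle start, NM_001171095: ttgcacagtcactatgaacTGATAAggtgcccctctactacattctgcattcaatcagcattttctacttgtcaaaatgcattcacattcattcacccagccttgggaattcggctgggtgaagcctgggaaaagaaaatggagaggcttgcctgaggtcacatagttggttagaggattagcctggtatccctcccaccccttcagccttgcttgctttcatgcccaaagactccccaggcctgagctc

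In all, 6 motifs were searched on both strands of the 250 bases before each of 35116 RefSeq starts, of which 9 starts belonged to 7 of the 9 members. TTTAT was found in 32.7% of all these windows and TGATAA in 6.66%, and among the 9 member windows each was found only in CLDN2, the former before the upstream start and the latter before the middle start. The TATA box TATAAA was in 10.7% of all windows and the HNF1 half-site GTTAAT in 6.23%, and both were in 0 of the 9 member windows. The AP-1 site TGACTCA was in 4.2% of all windows and in those of CLDN4 and CLDN15. The core of the interferon response element, 2 runs of GAAA with 2 bases between them, was in 3.02% of all windows and in that of CLDN7. These matches describe letters only. A window with TATAAA always holds TTTAT as well, read on the other strand.

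CLDN2 had 10422 reads in the control library of experiment 1 and 7479 reads in the Myc-TRIM40 library. In experiment 2 the control library had 6745 reads and the Myc-TRIM40 library had 1. CLDN2 was thus well covered in the first 3 of these libraries, and in the other it was under the floor of 3 reads. After TMM normalization, which scales the libraries to each other, the level with Myc-TRIM40 was 69.9% of control in experiment 1, with a counting interval of 67.8% to 72.0%. In experiment 2 it was 0.0147% of control, with a counting interval of 0.000372% to 0.0819%. The log2 ratios were -0.52 and -12.73, both below control. The intervals treat the deposited estimates as counted reads and cover counting error only, and the single read is itself such an estimate. In FPKM, reads per length and library total, CLDN2 stood at 57.0 and 38.8 in experiment 1 and at 30.8 and 0.00236 in experiment 2. The control libraries themselves differed, that of experiment 2 being at 0.541 times that of experiment 1, so that the Myc-TRIM40 library of experiment 1 lay above the control of experiment 2 and the groups overlapped. With both experiments in one edgeR quasi-likelihood fit, the log2 fold change was -4.30 (SE 2.29, 95% interval -9.54 to 0.94, 2 libraries per condition) and the adjusted p was 0.888, so that CLDN2 did not pass the test in spite of the single read. By DESeq2, with a log2 fold change of -6.52, it did not pass either (adjusted p = 1.00). Fewer cells that express a gene and less RNA per cell cannot be told apart in such bulk libraries.

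No other gene went from so many reads to so few. Of the 8295 genes with at least 1000 reads in the control library of experiment 2, CLDN2 was the only one, 0.0121%, with at most 3 reads in the Myc-TRIM40 library. In experiment 1, 0 of 8299 genes did this. The bounds were set with the reads of CLDN2 known. The genes on either side of it had reads in every library. In experiment 1 MORC4 had 3662 reads in the control and 2781 with Myc-TRIM40, and 3909 and 3997 in experiment 2. TBC1D8B had 489 and 599, then 387 and 700 reads. RIPPLY1, which overlaps the upstream start of CLDN2 and could share reads with it, had 0, 2, 7 and 5 reads in the same order.

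By transcript, all 10422 reads of the control library of experiment 1 were assigned to the middle start, and all 6745 reads of the control library of experiment 2 to the upstream start. The Myc-TRIM40 library of experiment 1 had 4986 reads on the upstream start and 2493 on the middle start, which is 66.7% and 33.3% of the gene and a ratio of exactly 2. The single read with Myc-TRIM40 in experiment 2 was given to the upstream start. The downstream start had 0 reads in all libraries. These are estimates by the authors' assembler, not counts of reads over a first exon. The 2 controls thus had no CLDN2 transcript in common. Among 5107 genes with several transcripts and at least 1000 reads in both controls, the most abundant transcript differed between the controls in 834, or 16.3%, and all reads changed from one transcript to another in 2, or 0.0392%, of which CLDN2 was one. In a fit over 33773 transcripts, edgeR called 0 in either direction, with 933, or 2.76%, at an unadjusted p under 0.05, and DESeq2 called 216 higher and 113 lower. For the middle start, edgeR gave a log2 fold change of -2.05 (adjusted p = 0.977), and for the upstream start one of -0.08 (adjusted p = 1.00). DESeq2 gave -1.14 for the middle start and 5.05 for the upstream start, where the direction is turned, and neither passed its test (adjusted p = 1.00 for both by DESeq2). The stacked bars by transcript show the 3 filled libraries and the empty one.

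**Figure D1:**
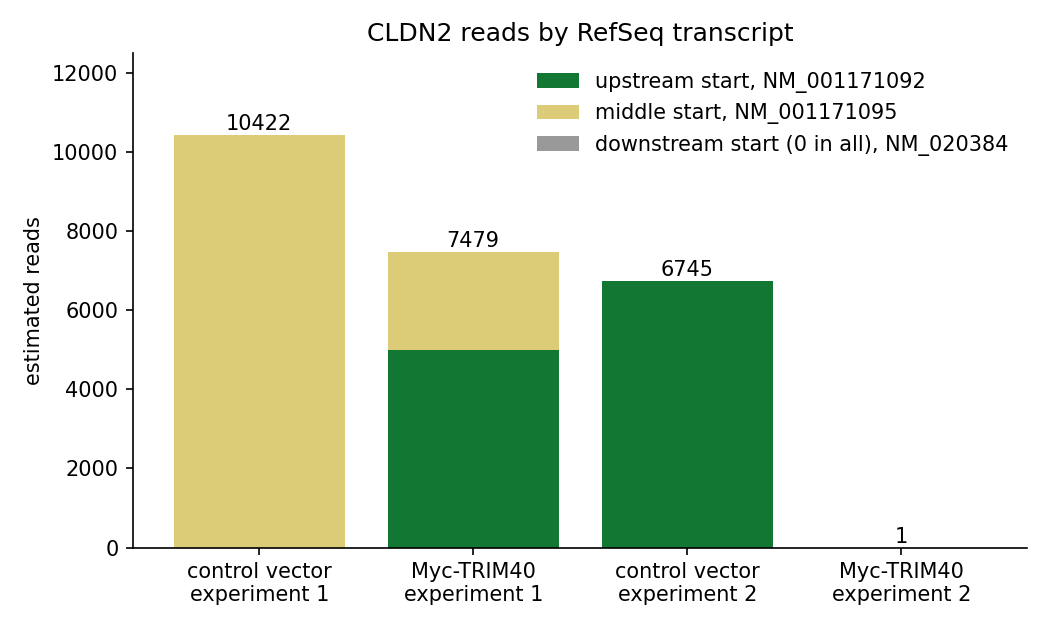
Estimated reads of CLDN2 (y axis) in each of the 4 libraries (x axis), stacked by RefSeq transcript, with the total above each bar. The control libraries hold 10422 and 6745 reads on different transcripts, the Myc-TRIM40 library of experiment 1 holds 7479 reads on both, and the other holds 1 read.

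CLDN15, the other cation pore of the list, lies on chromosome 7 at 100875373 to 100882101. In experiment 1 it had 790 reads in the control and 927 with Myc-TRIM40, and 637 and 717 in experiment 2, at 6.27, 7.23, 4.50 and 5.45 FPKM. It was higher with Myc-TRIM40 in each experiment, by 0.18 and 0.23 on the log2 scale of FPKM + 1, but the controls were 0.40 apart and the groups overlapped. The edgeR log2 fold change was 0.17 (SE 0.22, 95% interval -0.32 to 0.67, adjusted p = 0.904). The 2 pore-forming members therefore did not move together, CLDN2 being lower and CLDN15 higher in each experiment, and neither passed the test. Its transcript NM_001185080 held between 89.2% and 92.5% of the reads in each library.

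Among the sealing claudins, CLDN4 was the most abundant member. It lies on chromosome 7 at 73245193 to 73247023, next to CLDN3 at 73183327 to 73184600. CLDN4 had 23206 and 26422 reads in experiment 1, in control and Myc-TRIM40, and 26936 and 19270 in experiment 2, at 202.6, 230.1, 212.0 and 163.9 FPKM. The 2 controls were close to each other, and the Myc-TRIM40 libraries lay on either side of them. CLDN3 had 9892, 10130, 9498 and 7268 reads in the same order, at 124.1, 126.8, 107.4 and 88.9 FPKM. In both genes experiment 1 was near or above control and experiment 2 below it. The log2 ratios of FPKM + 1 were 0.18 and -0.37 for CLDN4 and 0.03 and -0.27 for CLDN3. The edgeR log2 fold changes were -0.17 (SE 0.23, adjusted p = 0.911) and -0.20 (SE 0.23, adjusted p = 0.900).

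CLDN1, a sealing claudin on chromosome 3 at 190023490 to 190040235, had 2127 and 2826 reads in experiment 1, then 3648 and 3347 in experiment 2. That was 9.85, 13.1, 15.2 and 15.1 FPKM, and the lowest library was the control of experiment 1. The log2 ratios of FPKM + 1 were 0.37 and -0.01, both smaller than the 0.58 between the controls, and the edgeR log2 fold change was 0.12 (SE 0.23, adjusted p = 0.941). CLDN8, a sealing claudin of the distal colon, lies on chromosome 21 at 31586324 to 31588469. It had 0 reads in all 4 libraries, which leaves room for at most 3 reads in a library of these depths, and it could not be tested.

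CLDN7, a claudin that lies along the side membrane and binds EPCAM, is on chromosome 17 at 7163222 to 7166512. It had 10123 and 11322 reads in experiment 1, then 13892 and 11020 in experiment 2, at 82.8, 92.1, 100.4 and 86.6 FPKM. Both Myc-TRIM40 libraries lay between the controls. The log2 ratios of FPKM + 1 were 0.15 and -0.21, and the edgeR log2 fold change was -0.11 (SE 0.23, adjusted p = 0.945). CLDN7 overlaps ELP5, which had 1800, 1776, 3286 and 2058 reads, and reads could be shared between them. With the 2 genes summed, an alternative chosen after seeing the data, the log2 fold change was -0.15 (adjusted p = 0.923). NM_001307 held between 92.6% and 97.7% of the reads of CLDN7.

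CLDN12, a claudin that lacks the tail motif with which most others bind the scaffold, is on chromosome 7 at 90032648 to 90045268. It had 4140 and 4152 reads in experiment 1, then 5258 and 5076 in experiment 2, at 18.2, 18.3, 20.9 and 21.8 FPKM. Of the 8 expressed members it had the smallest edgeR change, with log2 ratios of FPKM + 1 of 0.00 and 0.06 and an edgeR log2 fold change of -0.05 (SE 0.21, 95% interval -0.53 to 0.43, adjusted p = 0.975). CLDN12 changed sign between scales, being above control in FPKM and below it in TMM-normalized reads, at log2 ratios of -0.03 and -0.06. Its most abundant transcript, NM_012129, held between 67.7% and 77.1% of the reads. The transcript NM_001185072 held 16.98% and 18.5% in experiment 1 and 15.0% and 7.19% in experiment 2, in control and Myc-TRIM40.

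CLDN23, a claudin of the differentiated colon surface, is on chromosome 8 at 8559666 to 8561617. It had 151 and 241 reads in experiment 1, then 196 and 197 in experiment 2, at 1.23, 1.97, 1.44 and 1.57 FPKM. It was the only member whose groups did not overlap in FPKM, both Myc-TRIM40 libraries being above both controls, as was the case for 15.2% of all genes tested, with 6.48% separate in the other direction. The log2 ratios of FPKM + 1 were 0.41 and 0.07, but in TMM-normalized reads the second was -0.01, and the edgeR log2 fold change was 0.31 (SE 0.30, adjusted p = 0.890). With at most 241 reads in a library, it was the thinnest covered of the tested members.

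The plot of levels by library places the members on one scale. In the controls the order by FPKM was CLDN4, CLDN3, CLDN7, CLDN2, CLDN12, CLDN1, CLDN15, CLDN23 and CLDN8, and no neighbouring genes in this order overlapped in their 2 values. With Myc-TRIM40, the mean of CLDN2 came after that of CLDN12. There the values of CLDN3 and CLDN7, of CLDN12 and CLDN2, and of CLDN2 and CLDN1 overlapped. Within each of these libraries CLDN3 was above CLDN7, while CLDN2 was above CLDN12 and CLDN1 in experiment 1 and below both in experiment 2.

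**Figure D2:**
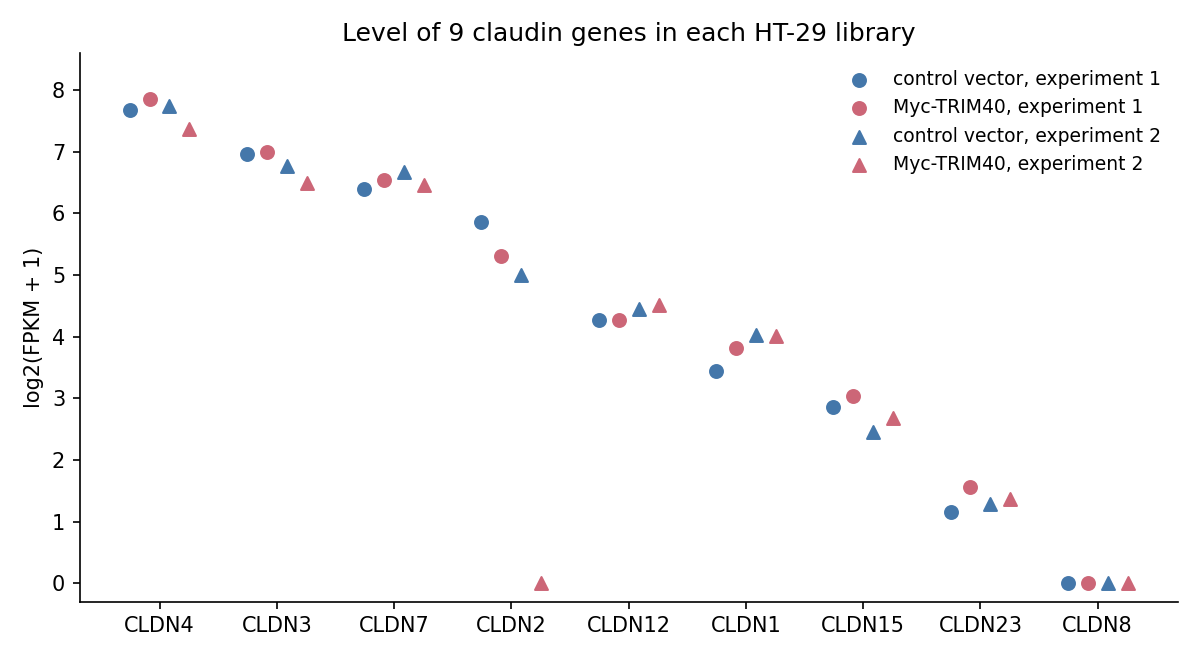
Level of each of the 9 members (x axis, ordered by the mean of the controls) as log2 of FPKM + 1 (y axis) in the 4 libraries, circles for experiment 1 and triangles for experiment 2, blue for control vector and red for Myc-TRIM40. The points of a gene lie close together except for CLDN2, where 1 of the red triangles is near 0, and CLDN8 is at 0 in all libraries.

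Over the 8 members that could be tested, edgeR called 0 higher and 0 lower, where 0.0404% and 0.0202% of the 14868 genes tested were called, that is 6 and 3 genes, or 0.0605% in either direction. At an unadjusted p under 0.05 there were 0 of 8 members and 4.54% of all genes by edgeR, and by DESeq2 1 of 8 members, which was CLDN2, and 3.65% of all genes. DESeq2 called 0 members after adjustment and 0.363% of all genes. The median log2 fold change was -0.08 for the members and 0.04 for all genes tested. The intervals of the 7 members other than CLDN2 bound what these libraries could show. Their lower ends were between -0.72 and -0.32 and their upper ends between 0.31 and 1.00 on the log2 scale. A change of 2-fold lies outside the interval for CLDN1, CLDN3, CLDN4, CLDN7, CLDN12 and CLDN15 and at its edge for CLDN23. With 1 residual degree of freedom, these intervals draw on a spread shared across genes. The length trend of experiment 2, given below, is not taken out of them. The plot of fold changes shows that only the interval of CLDN2 is wide.

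**Figure D3:**
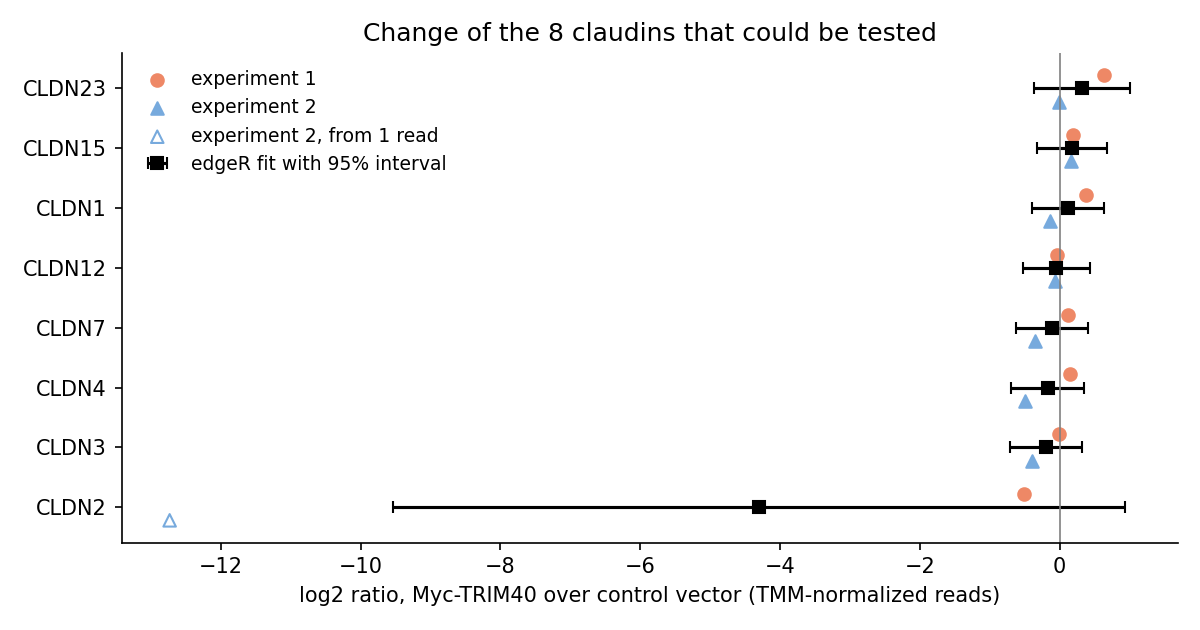
Log2 ratio of Myc-TRIM40 over control vector in TMM-normalized reads (x axis) for each of the 8 tested members (y axis), with the edgeR estimate and its 95% interval in black and the value within each experiment as a circle or a triangle. The open triangle of CLDN2 at -12.73 rests on 1 read, and every interval includes 0.

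Within each experiment, where each condition had 1 library and there is no test, members were read against a ratio of 1.5 in FPKM + 1. In experiment 1, 0 of the 9 members passed it, against 1.66% of all genes higher and 0.466% lower. In experiment 2, 1 of the 9, CLDN2, passed it downward, against 4.71% of all genes higher and 1.59% lower. Among genes whose FPKM averaged 1 or more, 3.01% were higher and 0.822% lower in experiment 1, and 10.7% and 3.42% in experiment 2. The ratio had opposite signs in the 2 experiments for 4 of the 8 members, CLDN1, CLDN3, CLDN4 and CLDN7, and for 43.7% of all genes tested. That count depends on the scale. In TPM, where every library has an equal total, it was 2, CLDN3 and CLDN4, against 39.4% of all genes, and in TMM-normalized reads it was 4, CLDN1, CLDN4, CLDN7 and CLDN23, against 45% of all genes. Over genes whose FPKM averaged 1 or more, the median log2 ratio of experiment 2 was 0.10 in FPKM + 1, 0.33 in TPM + 1 and 0.00 in TMM-normalized reads. In FPKM + 1 the ratio was above 0 in both experiments for CLDN12, CLDN15 and CLDN23, and below 0 in both for CLDN2. For CLDN1, CLDN7, CLDN12 and CLDN15, 4 of 8, both ratios were smaller than that between the 2 controls, which was so for 58.6% of all genes.

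The ratios of experiment 2 moved with transcript length across genes. Over 11801 genes whose FPKM averaged 1 or more, the Spearman correlation of log2 ratio and length was 0.69 in experiment 2 and 0.08 in experiment 1, as a description across genes of the same libraries. In experiment 2 the median was -0.25 for genes with transcripts under 2000 bases and 0.41 for those over 4000 bases. CLDN3, CLDN4, CLDN23 and CLDN7, with 1274, 1831, 1952 and 1974 bases, are among the short genes. In experiment 2 CLDN3, CLDN4 and CLDN7 were below 0, but CLDN23 was above it, at 0.07. CLDN1, CLDN2 and CLDN12 have 3452, 3023 and 3624 bases. With a trend on length taken out, chosen after seeing the data, the values of experiment 2 were 0.02 for CLDN3, -0.25 for CLDN4, -0.13 for CLDN7, -0.16 for CLDN12 and -0.21 for CLDN1. CLDN3 and CLDN12 thereby changed sign. CLDN2 was at -5.12, CLDN15 at 0.30 and CLDN23 at 0.16.

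Added together, the members reached 502 and 528 FPKM in experiment 1 and 493 and 383 FPKM in experiment 2, in control and Myc-TRIM40. CLDN3, CLDN4 and CLDN7 made up most of this in every library, with 81.6% and 85.0%, then 85.2% and 88.5%. The pore-forming CLDN2 and CLDN15 together made up 12.6% and 8.72% in experiment 1 and 7.17% and 1.42% in experiment 2. Their share was lower with Myc-TRIM40 in both experiments, and that of the Myc-TRIM40 library of experiment 1 was above that of the control of experiment 2. CLDN4 was 3.55 and 5.93 times as abundant as CLDN2 in control and Myc-TRIM40 of experiment 1, and 6.87 times in the control of experiment 2. Of the reads of the 9 members, CLDN2 took 17.1% (95% Wilson interval 16.8% to 17.4%) and 11.8% (11.5% to 12.0%) in experiment 1. In experiment 2 it took 10.1% (9.87% to 10.3%) and 0.00213% (0.000376% to 0.0121%). These intervals cover counting error within a library only. The shares of the 2 controls, 17.1% and 10.1%, lie outside each other's interval. Without CLDN2 the sums were 445 and 490 FPKM, then 462 and 383 FPKM, and that of experiment 2 was still lower with Myc-TRIM40. The stacked bars by member show this make-up.

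**Figure D4:**
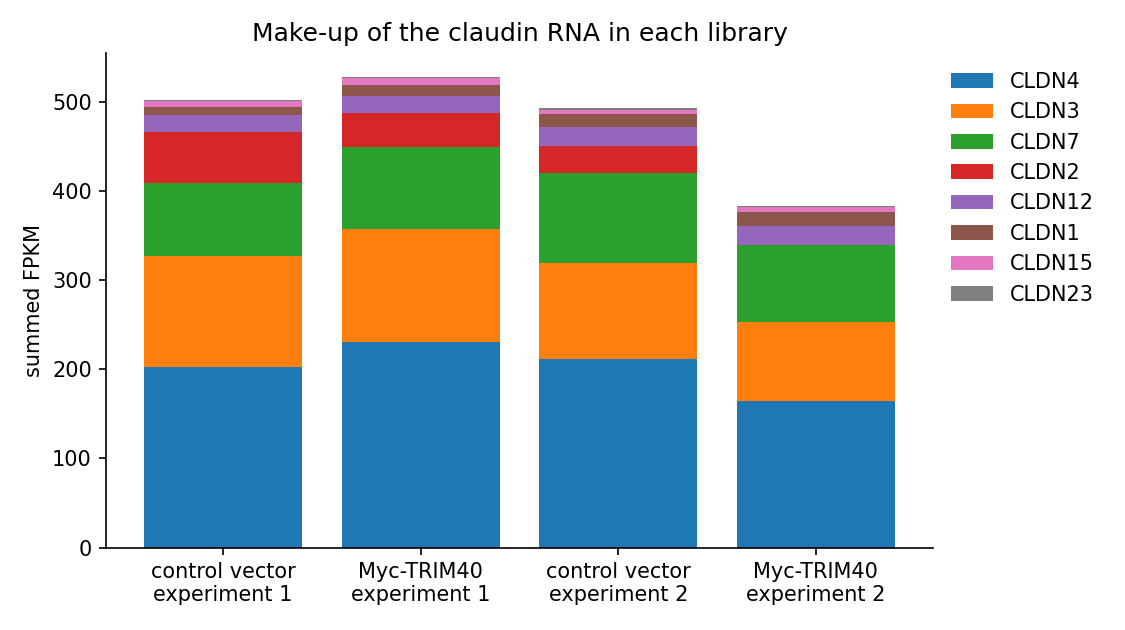
Summed FPKM of the members (y axis) in each of the 4 libraries (x axis), stacked by gene. CLDN4, CLDN3 and CLDN7 form the lower part of every bar, the CLDN2 segment goes from 57.0 to 38.8 FPKM in experiment 1 and from 30.8 FPKM to none that can be seen in experiment 2, and CLDN8 at 0 is not drawn.

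The other 15 claudins were nearly silent, apart from CLDN9. Of the 15, 5 had 0 reads in all libraries, 2 had enough reads to be tested, and 0 were called, against 0.0605% of all genes tested. CLDN9 was the only one to reach 1 FPKM, with 340 and 536 reads in experiment 1, then 492 and 431 in experiment 2, and a log2 fold change of 0.21 (SE 0.27, edgeR adjusted p = 0.911). By these estimates the same 8 members and CLDN9 had reads under both conditions, with CLDN2 under the floor of 3 reads in 1 library. Whether the single CLDN2 read there reflects the RNA of the cells or the estimate of the assembler was not tested.

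The proteins that claudins meet at the junction were read as a list of 9, made of OCLN, MARVELD2 and MARVELD3, membrane proteins of the junction, F11R, an adhesion molecule, the scaffold proteins TJP1 and TJP3, CGN, which links the junction to actomyosin, EPCAM, and LSR, which marks the corners where 3 cells meet. All 9 could be tested and edgeR called 0, against 0.0605% of all genes. At an unadjusted p under 0.05 by edgeR there were 2, TJP1 and CGN, against 4.54% of all genes. The median log2 fold change of the list was 0.23, against 0.04 for all genes tested. The length trend of experiment 2 is not taken out of these edgeR values. In experiment 2, 3 of the 9 passed 1.5-fold upward, TJP1, MARVELD2 and CGN, against 4.71% of all genes and 10.7% of those whose FPKM averaged 1 or more, and in experiment 1, 0 did. TJP1, which had the highest log2 fold change of the list, was at 25.3 and 30.6 FPKM in experiment 1 and at 4.85 and 21.0 FPKM in experiment 2, so the control of experiment 2 stood apart from the other 3 libraries. Its log2 fold change was 1.11 (SE 0.39, edgeR adjusted p = 0.888). TJP1 is also long, with 7849 bases, and the log2 ratio of experiment 2 was 1.91 before and 1.39 after the length trend was taken out. For CGN, with 5101 bases, it was 0.75 before and 0.38 after, which is under 1.5-fold, and for MARVELD2 0.94 and 0.98. EPCAM, which binds CLDN7 and keeps it at the membrane, was at 322 and 341 FPKM in experiment 1 and at 621 and 467 FPKM in experiment 2. Its log2 fold change of -0.25 was the lowest of the list (SE 0.21, edgeR adjusted p = 0.888). In FPKM, EPCAM and CLDN7 were both higher in experiment 1 and lower in experiment 2, as were CLDN1, CLDN3, CLDN4, CLDN9 and LSR. Opposite signs in FPKM + 1, in either order, were found for 43.7% of all genes tested. The share with this order alone is smaller and was not counted. In TPM CLDN7 was not lower in experiment 2.

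**Figure D5:**
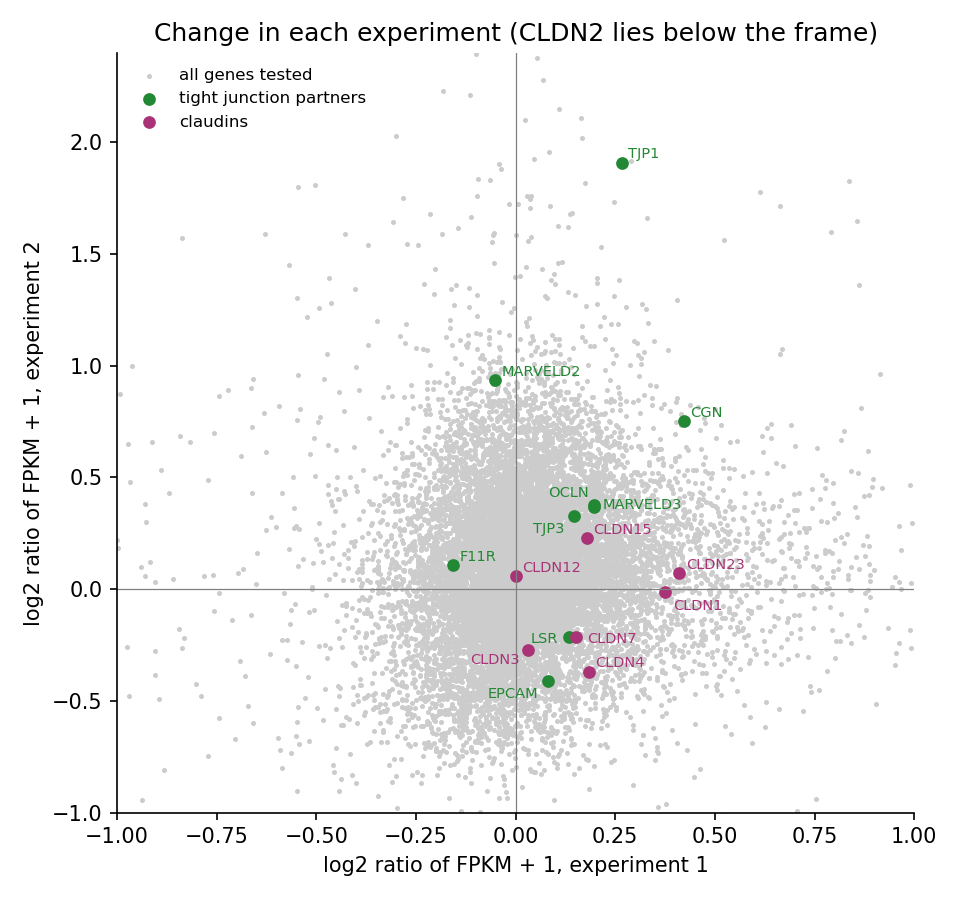
Log2 ratio of FPKM + 1, Myc-TRIM40 over control vector, in experiment 1 (x axis) and experiment 2 (y axis), for all genes tested (grey), the partners (green) and the members (purple). The members lie near the centre of the cloud and on this scale 4 are on different sides of 0 in the 2 experiments, CLDN2 at -0.54 and -4.99 lies below the frame, and 237 of the 14868 genes are outside it.

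Of 6 transcription factors known to act on claudin genes, 5 could be tested and edgeR called 0, against 0.0605% of all genes. At an unadjusted p under 0.05 there were 0 by edgeR and 0 by DESeq2, against 4.54% and 3.65% of all genes. GRHL2, an epithelial factor, had the highest log2 fold change of the list, 0.23 (SE 0.22, adjusted p = 0.892), and CDX2 the lowest, -0.03 (SE 0.28, adjusted p = 0.992). CDX2, which acts on CLDN2 in the intestine, was low in all libraries, at 1.296 and 1.39 FPKM in experiment 1 and 1.23 and 1.22 FPKM in experiment 2. SNAI2, a repressor of epithelial genes, had 0 reads throughout. The plot of both experiments shows the members and partners among all genes.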

How the data were processed

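RNA was measured in 4 HT-29 libraries, a control and a Myc-TRIM40 library in each of 2 experiments. Per the labels, the authors used HISAT2 2.1.0, StringTie 1.3.4d and hg19, and the paper gives the kit as TruSeq Stranded mRNA. Whether counting used strand is not given in the sources used here. The authors deposited estimated counts per RefSeq transcript as whole numbers, not normalized, together with FPKM scaled by length and library total. The authors deposited TPM for experiment 2 only. The TPM values given above were therefore obtained alike for all 4 libraries, by rescaling the FPKM of each library to an equal total. Other deposited values used were transcript lengths.

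Transcripts were summed per gene, and totals per library ranged from 60954602 to 67424698 reads. Genes kept by filterByExpr (14868) were tested with edgeR 4.0.16 (glmQLFit, glmQLFTest, R 4.3.3), TMM, Benjamini-Hochberg adjustment over all genes, a threshold of 0.05 and the experiment number as a block, and 33773 transcripts likewise. Each file held 1 experiment, which the replicate numbers in the labels repeat, and deviations of same-numbered libraries correlated at 0.453. The block leaves 1 residual degree of freedom. The smallest two-sided exact permutation p for 2 against 2 is 0.333, so no such test was run. Counting intervals are exact binomial ones for the ratio of 2 counts and Wilson ones for shares. The fits were tested on simulated counts with a dispersion of 0.05. There the edgeR gene fit with the block found 23 of 100 changes of 2-fold and 92 of 100 of 4-fold, with 2 false calls. The simulated counts held no trend with transcript length, unlike experiment 2, so these rates need not hold for the data.

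The members and gene lists were chosen with earlier results of these data known. All members were named, with all transcripts of CLDN2 and up to 2 of the others, other claudins at 1 FPKM or more, and from the lists those that passed the test or 1.5-fold in both experiments, the highest and the lowest, and EPCAM. MARVELD2, CGN and SNAI2 were named after their values were seen. Genes that overlap or neighbour a member were named for shared reads. Some genes of the lists are not reported here. Alternatives were no block, DESeq2 1.42.0, limma 3.58.1 on log2(FPKM + 1), upper-quartile and median-centred scaling, no filter, the top transcript only, each experiment left out, a pseudocount of 0.1, TPM, 2-fold, a mean FPKM of at least 1, and shares of summed FPKM. Taking out a length trend and summing CLDN7 with ELP5 were chosen after seeing the data. Plots and other steps used Python 3.11.15.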

Additional observations from a re-analysis of the deposited data

How the results depend on the processing

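The 57 alternatives of the 8 tested members do not include those with 1 experiment left out. Over these 57, 0 were called and the lowest adjusted p was 0.804. The direction was kept in 56, and CLDN12 reversed to 0.030 with limma on log2(FPKM + 1). The log2 fold change of CLDN2 ranged from -6.52 with DESeq2 to -1.21 without the replicate block. Without the replicate block the counts over all genes were 0 higher and 0 lower, with 153 at an unadjusted p under 0.05, and no member's call changed with the pairing. DESeq2 with the block called 45 genes higher and 9 lower, limma 3 higher and 0 lower with 134 lower before adjustment, and the fit without a filter 0 and 0 with 447 before adjustment, against 6 and 3. For transcripts DESeq2 called 216 higher and 113 lower against 0 and 0. With a pseudocount of 0.1, 1 member passed 1.5-fold upward in experiment 1, CLDN23, against 0. The share of all genes at that pseudocount was not counted, so no reading is drawn from this count. As a share of summed FPKM rather than reads, CLDN2 was at 11.4% and 7.35% in experiment 1 and 6.26% in the control of experiment 2. With 1 experiment left out the value is that of the other, with no test. CLDN2 then ranged from -12.73 to -0.52, so its size rests on the Myc-TRIM40 library of experiment 2, and in these TMM-normalized reads CLDN1, CLDN4, CLDN7 and CLDN23 differed in sign between the experiments. With 2 experiments, 1 residual degree of freedom and transcript assignments that differ between controls, every value is limited.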
